A study of Homo sapiens with 12 samples.

Results

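Neurotensin and a set of genes of the regulated secretory pathway were followed in SW13 cells, a human line derived from a small cell carcinoma of the adrenal cortex. The set holds 10 genes: NTS, UTS2B, SCG2, CHGA, CHGB, VGF, SCG5, PCSK1, PCSK2 and CPE. Their probe sets on the Affymetrix U133 Plus 2.0 array were found through the gene symbols of the platform annotation, and 8 of the 10 genes had a probe set that named them alone. PCSK1 and PCSK2 were not matched and were not analysed here. All 8 matched genes passed the filter on low signal, which left 13834 genes for testing in the whole series. NTS, UTS2B, SCG2, CHGA, SCG5 and CPE passed it mainly through the line in which they were high, so counts and medians over the set are a description. The set was selected on its signals in these arrays, with the difference between the lines in mock-treated cells in view, so the values of that comparison are given as a description without a test.

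The 12 arrays fall into 4 groups of 3. They were SW13+BRG1 cells irradiated with UV at 10 J/m2, SW13+BRG1 cells mock treated, SW13+vector cells given the same dose, and SW13+vector cells mock treated. All were collected 6 h after treatment. Both are stable lines made with the plasmid pREP7, which in SW13+BRG1 also carries isoform C of BRG1 (gene symbol SMARCA4), the ATPase of a chromatin remodelling complex. SW13 cells lack this protein. A single line stood for each condition, so the 3 biological replicates of a group repeat the same line, and an effect of BRG1 cannot be told apart from other differences between these lines. The question was which transcripts differ with BRG1, without UV and after it.

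Peptide hormones are made as longer precursors that enter dense-core granules and are cut and trimmed there before release. The granins CHGA, CHGB, SCG2 and, in a wider sense, VGF are abundant cargo of these granules. PCSK1 and PCSK2 cut the precursors at pairs of basic residues, SCG5 is a chaperone of PCSK2, and CPE removes the basic residues left at the new end. NTS encodes neurotensin, a peptide of gut endocrine cells and of neurons, and UTS2B encodes a peptide related to the vasoactive urotensin. In the adrenal gland this pathway is best known from the chromaffin cells of the medulla, and the cortex is known for steroid synthesis.

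The line names were taken from the labels and the study's methods, and these arrays do not measure BRG1 protein. Of the 9 probe sets of SMARCA4, 7 were tested, and they did not separate the lines in 1 direction: 212520_s_at was higher in SW13+BRG1 after UV (log2 fold change 2.20, standard error 0.45, limma adjusted p = 0.00284), and 215714_s_at was lower in SW13+BRG1 without UV (-1.28, standard error 0.42, adjusted p = 0.0459). Whether these probe sets lie in the part of BRG1 that the plasmid carries was not determined. Array medians were between 21.1 and 25.3 signal units, and log2 signals correlated at 0.894 to 0.949 between arrays of 1 group (12 pairs) and at 0.763 to 0.915 between arrays of different groups (54 pairs). Of 13 adrenal cortex markers on the array, 2 (FDX1 and SCARB1) were at or above the array median on all 12 arrays, while STAR, CYP11B2, HSD3B2 and MLANA were below it on all 12. Of 10 markers of medulla and chromaffin cells, CYB561 alone was at or above the median throughout, and TH, DBH, DDC, SLC18A1 and HAND2 were below it on every array. Thus the defining markers of steroid synthesis and of catecholamine synthesis were at or near background in both lines. The summed signal of the cortex markers was 1022 to 1214 in SW13+BRG1 after UV and 1120 to 1254 in mock-treated SW13+BRG1. In SW13+vector it was 1903 to 2208 after UV and 1876 to 2062 in mock-treated cells. FDX1 (715 to 1626 over the 12 arrays) and SCARB1 (159 to 720) made up most of this sum, and no other cortex marker exceeded 60.7. Of the 5 tested cortex markers, 0 were called by limma in any of the 5 comparisons. The part of the summed signal in the results was not tested.

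The promoters of 3 genes are shown because their genes differed strongly between the lines, NTS in one direction and SCG5 and CPE in the other. Each is the stretch of 250 bases that ends just before the gene's annotated start, 5′ to 3′ on the strand of the gene, from the RefSeq promoter table (GRCh38.p14), in which 8 of the 10 genes were matched. SCG2 and CHGB had no entry. Capitals mark the palindrome TGACGTCA of the cAMP response element, its relaxed form TGACNTCA, and TGACG, a part of it, on either strand. The motifs were chosen after the sequences had been seen.
NTS (chr12:85874045-85874294, plus strand): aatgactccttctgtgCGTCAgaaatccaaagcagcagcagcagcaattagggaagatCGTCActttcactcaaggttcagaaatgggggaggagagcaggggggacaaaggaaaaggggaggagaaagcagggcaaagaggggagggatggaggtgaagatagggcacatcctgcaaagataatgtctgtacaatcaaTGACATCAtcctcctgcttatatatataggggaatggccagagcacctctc
SCG5 (chr15:32641460-32641709, plus strand): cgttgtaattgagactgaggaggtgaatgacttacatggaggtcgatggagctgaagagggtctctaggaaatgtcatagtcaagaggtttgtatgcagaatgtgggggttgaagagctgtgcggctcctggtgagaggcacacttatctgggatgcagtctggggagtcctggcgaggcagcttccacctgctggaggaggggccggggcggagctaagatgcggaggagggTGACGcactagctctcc
CPE (chr4:165378758-165379007, plus strand): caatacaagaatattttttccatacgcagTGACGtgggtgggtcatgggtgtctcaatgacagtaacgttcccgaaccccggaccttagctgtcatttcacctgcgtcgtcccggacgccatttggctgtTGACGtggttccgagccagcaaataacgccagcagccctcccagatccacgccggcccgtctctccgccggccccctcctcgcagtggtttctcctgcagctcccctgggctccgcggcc

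In the NTS window TGACATCA lies 51 to 44 bases before the start, with TGACG on the other strand 234 to 230 and 192 to 188 bases before it. The SCG5 window has TGACG 17 to 13 bases before the start, and the CPE window has it 221 to 217 and 120 to 116 bases before. The NTS window is also poor in CpG, with 2 CpG dinucleotides and 49.2% GC, compared with 8 and 56.4% for SCG5 and 20 and 60.4% for CPE. Over 35116 promoter windows of the same length the medians were 11 CpG and 58% GC. Of the 6 measured genes with a window, TGACNTCA was found in 3 (NTS, CHGA and VGF), TGACGTCA in 2 (CHGA and VGF) and TGACG, which is part of TGACGTCA, in all 6. Among all windows 6.87% hold TGACNTCA, 1.65% TGACGTCA and 21.2% TGACG, each searched on both strands. The 30 bases around the match are shown for the 3 genes to compare its setting, with the match in capitals. For CHGA and VGF the annotated start of this window lies inside the span of the gene, since another transcript starts further upstream.
NTS (chr12:85874233-85874262, plus strand): tgtacaatcaaTGACATCAtcctcctgctt
CHGA (chr14:92923085-92923114, plus strand): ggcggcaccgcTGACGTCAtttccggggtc
VGF (chr7:101165630-101165659, minus strand): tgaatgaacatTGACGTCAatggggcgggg

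These 3 genes share TGACNTCA and did not move together between the lines: after UV, NTS was lower in SW13+BRG1, VGF was higher and CHGA was not called. The VGF window also holds TATAAA on the other strand 32 to 27 bases before the start and GGACAGC, part of the element that the repressor REST binds, 7 to 1 bases before it. These letters occur in 10.7% and 4.76% of all windows. A match is only a description of the letters in a window.

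After UV, SW13+BRG1 cells had less NTS, UTS2B, SCG2 and CHGB RNA than SW13+vector cells, that is 4 of the 8 genes. VGF, SCG5 and CPE were higher, that is 3 genes, and CHGA was not called. A call needs a limma adjusted p under 0.05 over all tested probe sets and a fold change over 2. Among all 13834 genes 9.56% were called higher and 6.61% lower in this comparison. The median log2 fold change of the 8 genes was -1.20, and that of all genes was -0.017. The test after UV repeats the difference between the lines on other arrays of the same lines, and the genes were chosen with earlier results of these arrays known, so it is not independent evidence for the set. In RNA from whole cultures fewer cells that make a transcript and less of it per cell cannot be told apart.

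**Figure D1:**
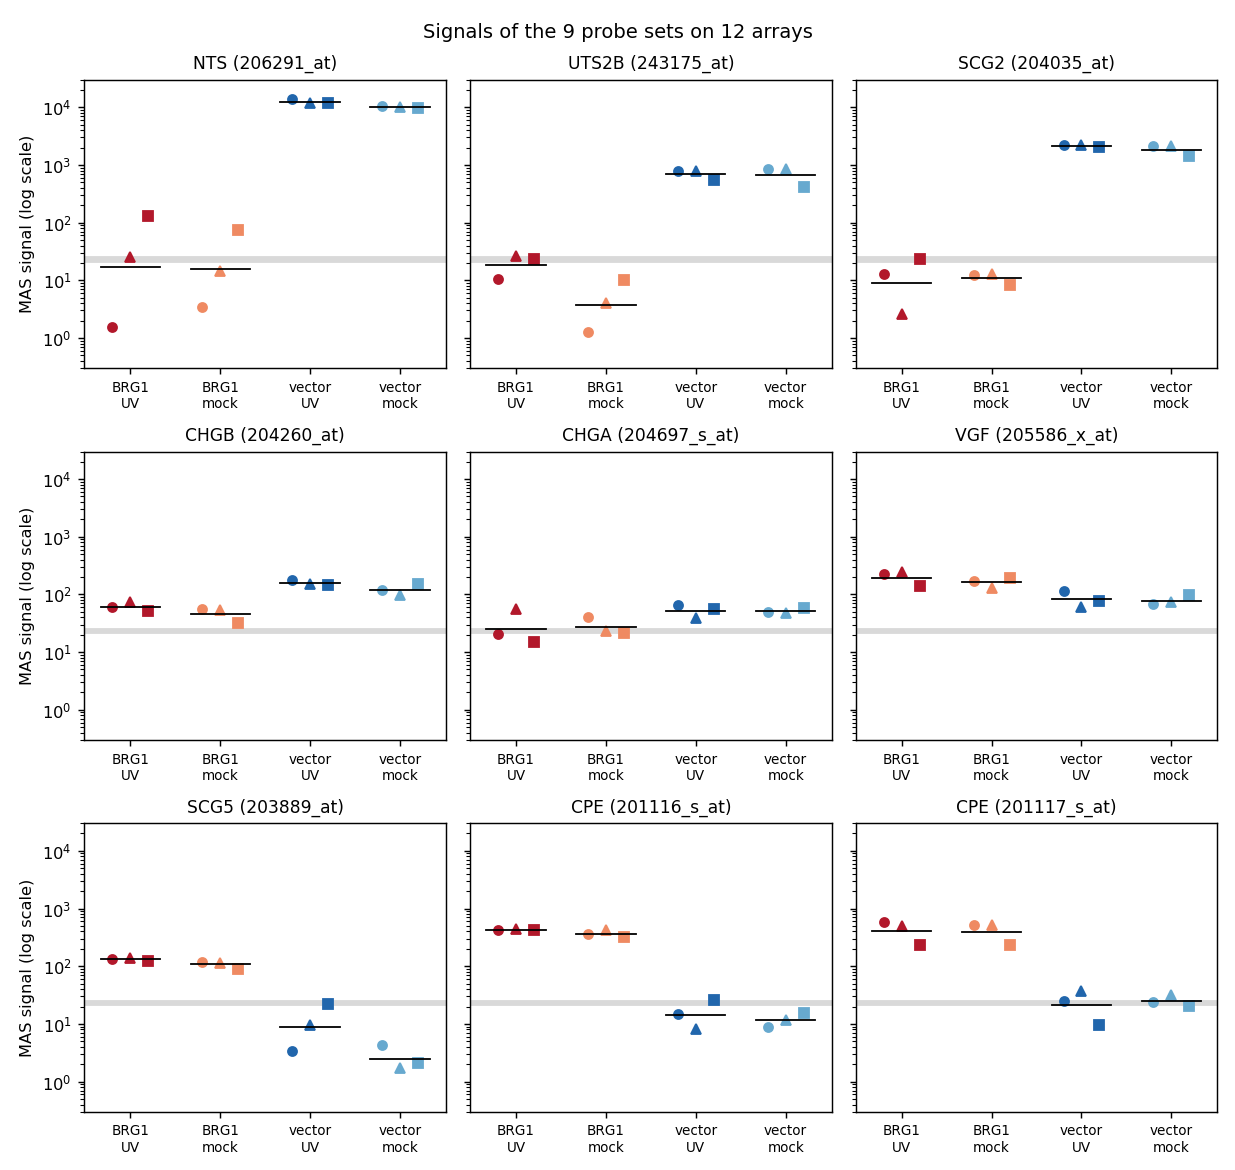
MAS signal (log scale) of the 9 probe sets of the 8 genes on each of the 12 arrays, with circles, triangles and squares for arrays 1, 2 and 3, a line at the mean of the log2 signals of a group, and a grey band for the range of the array medians (21.1 to 25.3). NTS, UTS2B and SCG2 lie near or under the band in most SW13+BRG1 arrays and far above it in SW13+vector, while SCG5 and CPE show the opposite arrangement.

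NTS, the neurotensin gene, was far lower in SW13+BRG1. Its probe set 206291_at had signals of 1.52, 24.9 and 128.2 in SW13+BRG1 after UV and 3.50, 14.4 and 74.4 in mock-treated SW13+BRG1, against 13752, 11999 and 11756 in SW13+vector after UV and 10568, 10144 and 9726 in mock-treated SW13+vector. The lines did not overlap on any array, and array 3 was the highest in both SW13+BRG1 groups. After UV the log2 fold change was -9.52 (standard error 1.26, limma adjusted p = 0.000104), and without UV the mean log2 signals differed by -9.35. The exact size depends on which low signals are included: without array 3 of SW13+BRG1 after UV it was -10.98, and without array 1 it was -7.79. The difference was called lower either way. The gene lies at chr12:85874295-85882992 (GRCh38.p14).

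UTS2B, the gene of the urotensin-related peptide, followed the same direction. Probe set 243175_at had signals of 10.7, 26.3 and 23.1 in SW13+BRG1 after UV and 1.27, 4.11 and 10.0 in mock-treated SW13+BRG1, against 792.9, 777.3 and 549.7 in SW13+vector after UV and 857.1, 849.5 and 410.4 in mock-treated SW13+vector. All SW13+BRG1 values were near or below the array median, and all SW13+vector values were far above it. The difference after UV was -5.22 (standard error 0.60, adjusted p = 3.3e-05), and without UV it was -7.48 as a description.

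SCG2, or secretogranin II, is a granin that is cut to secretoneurin. Its signals (204035_at) were 12.7, 2.56 and 23.6 in SW13+BRG1 after UV and 12.3, 12.9 and 8.36 in mock-treated SW13+BRG1, against 2195, 2221 and 2018 in SW13+vector after UV and 2110, 2101 and 1426 in mock-treated SW13+vector. The lines were again fully apart. After UV the log2 fold change was -7.87 (standard error 0.57, adjusted p = 5.06e-07), and without UV it was -7.40. Leaving out array 2 of SW13+BRG1 after UV gave -6.95, and leaving out array 3 gave -8.56, both called.

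Chromogranins A and B, the classic granins of chromaffin cells, differed far less. CHGB (204260_at) had signals of 61.3, 74.7 and 51.3 in SW13+BRG1 after UV and 55.2, 54.5 and 32.3 in mock-treated SW13+BRG1, against 177.1, 154.4 and 147.6 in SW13+vector after UV and 120.0, 97.7 and 150.8 in mock-treated SW13+vector. It was above the array median on every array, lower in SW13+BRG1 without overlap, and the log2 fold change after UV was -1.37 (standard error 0.27, adjusted p = 0.00209), compared with -1.40 without UV. Without the 4 arrays numbered 1, a fit added after the data had been seen, the CHGB value of -1.29 after UV was not called. CHGA (204697_s_at) had signals of 20.5, 55.3 and 14.8 in SW13+BRG1 after UV and 41.0, 23.6 and 21.3 in mock-treated SW13+BRG1, against 65.7, 38.6 and 55.4 in SW13+vector after UV and 49.9, 47.2 and 57.8 in mock-treated SW13+vector. The CHGA groups overlapped after UV and did not overlap without it. Its log2 fold change of -1.02 after UV (standard error 0.47, adjusted p = 0.140) did not pass, and the value without UV was -0.91. Array 2 of SW13+BRG1 after UV decided this, since without it CHGA was called at -1.58.

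VGF, a neuronal and endocrine peptide precursor, went the other way. Probe set 205586_x_at had signals of 222.4, 245.0 and 138.3 in SW13+BRG1 after UV and 173.9, 130.9 and 196.0 in mock-treated SW13+BRG1, against 115.7, 61.5 and 77.4 in SW13+vector after UV and 68.6, 72.7 and 96.5 in mock-treated SW13+vector. The groups did not overlap, and the log2 fold change was 1.26 after UV (standard error 0.29, adjusted p = 0.00588) and 1.07 without UV. The ending _x_at marks a probe set that may also bind other transcripts.

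SCG5, the chaperone of PCSK2, was near background in SW13+vector. Its signals (203889_at) were 133.7, 137.7 and 123.3 in SW13+BRG1 after UV and 120.2, 114.6 and 90.6 in mock-treated SW13+BRG1, against 3.35, 9.68 and 21.8 in SW13+vector after UV and 4.32, 1.75 and 2.07 in mock-treated SW13+vector. The 6 SW13+BRG1 arrays spanned a narrow range, while every SW13+vector array but array 3 after UV was well under its array median. The difference after UV was 3.88 (standard error 0.61, adjusted p = 0.000382) and without UV 5.43. Without array 1 of SW13+vector after UV the value after UV was 3.18, and without array 3 it was 4.53, both called.

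CPE, the carboxypeptidase, was read by 2 probe sets that gave the same direction. The first, 201117_s_at, had signals of 583.0, 503.7 and 236.0 in SW13+BRG1 after UV and 520.9, 512.0 and 236.3 in mock-treated SW13+BRG1, against 25.4, 37.4 and 9.57 in SW13+vector after UV and 24.4, 31.9 and 20.5 in mock-treated SW13+vector. For the second, 201116_s_at, they were 423.6, 435.8 and 422.1 in SW13+BRG1 after UV and 360.9, 416.4 and 321.8 in mock-treated SW13+BRG1, against 14.8, 8.02 and 25.7 in SW13+vector after UV and 8.66, 11.5 and 15.7 in mock-treated SW13+vector. With both the lines were apart on every array, and array 3 was the lowest SW13+BRG1 array of each treatment. The log2 fold changes of CPE after UV were 4.30 (standard error 0.49, adjusted p = 2.96e-05) and 4.88 (standard error 0.36, adjusted p = 6.55e-07), and those without UV were 3.98 and 4.97.

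**Figure D2:**
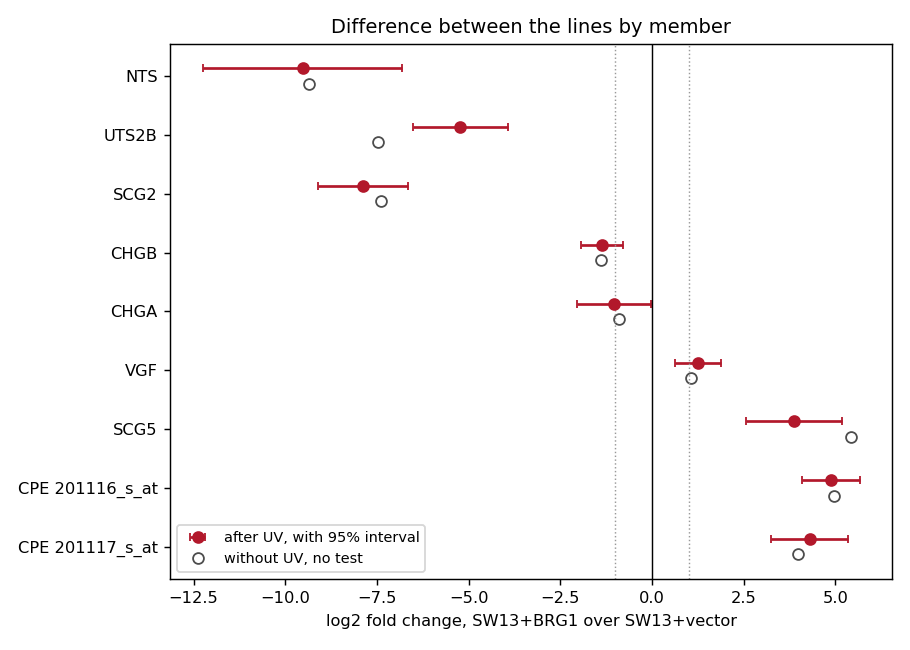
Log2 fold change of SW13+BRG1 over SW13+vector for each probe set of the set, after UV (filled, with the 95% interval from limma) and without UV (open, no test), with dotted lines at a 2-fold change. NTS, SCG2 and UTS2B lie farthest to the left, at -9.52, -7.87 and -5.22 after UV, and the CPE probe sets farthest to the right, at 4.30 and 4.88.

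Without UV the same split of directions was found as a description: 3 genes were more than 2-fold higher in SW13+BRG1 and 4 more than 2-fold lower, and CHGA was within 2-fold. The median log2 difference was -1.15 for the 8 genes and 0.0017 for all genes. Of all genes 9.05% were called higher and 5.09% lower, and a call also needs an adjusted p under 0.05. The share of all genes over 2-fold alone was not counted, so the counts of the 8 genes and these shares are not like for like. Thus the set was split: the peptide NTS, the peptide UTS2B and the granins SCG2 and CHGB were lower, and the processing enzyme CPE, the chaperone SCG5 and the precursor VGF were higher.

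UV was followed by a call in 1 of the 8 genes with BRG1 and in 0 with the vector. With BRG1 this gene was UTS2B, called higher after UV at a log2 fold change of 2.32 (standard error 0.60, adjusted p = 0.0206). Its 6 signals, from 1.27 to 26.3, were near or below the array median, and the call was lost in 11 of 28 alternative analyses, among them log2 of the signal plus 16 (0.76) and leaving out array 1 (1.54) or array 2 (2.39) of mock-treated SW13+BRG1 or array 2 (2.07) or array 3 (2.16) of SW13+BRG1 after UV. The other 7 genes were not called there, and among all genes 0.535% were called higher and 6.27% lower. With the vector none of the 8 genes was called by limma, and 1 had an unadjusted p under 0.05. That gene was SCG5, at a log2 fold change of 1.83 (standard error 0.61, adjusted p = 0.0784) between signals near background, and it was called at 2.54 without array 1 of SW13+vector after UV. Over all genes 0.528% were called higher and 3.93% lower with the vector.

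The UV effect of NTS was 0.13 with BRG1 (95% interval -2.59 to 2.84) and 0.30 with the vector (-2.42 to 3.01). Those intervals hold changes of several fold, since the fit pools the spread of the SW13+vector arrays with the far wider spread of the low SW13+BRG1 signals. In SW13+vector the NTS signals after UV, 11756 to 13752, lay above all those of mock-treated cells, 9726 to 10568, without passing the test (adjusted p = 0.923). VGF changed by 0.25 with BRG1 (-0.37 to 0.87) and by 0.07 with the vector (-0.56 to 0.69), and CHGB by 0.42 (-0.15 to 1.00) and 0.40 (-0.18 to 0.97). For these 2 genes a change of more than about 2-fold lay outside the intervals. The median UV effect of the 8 genes was 0.19 with BRG1 and 0.14 with the vector, against 0.032 and 0.027 for all genes.

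**Figure D3:**
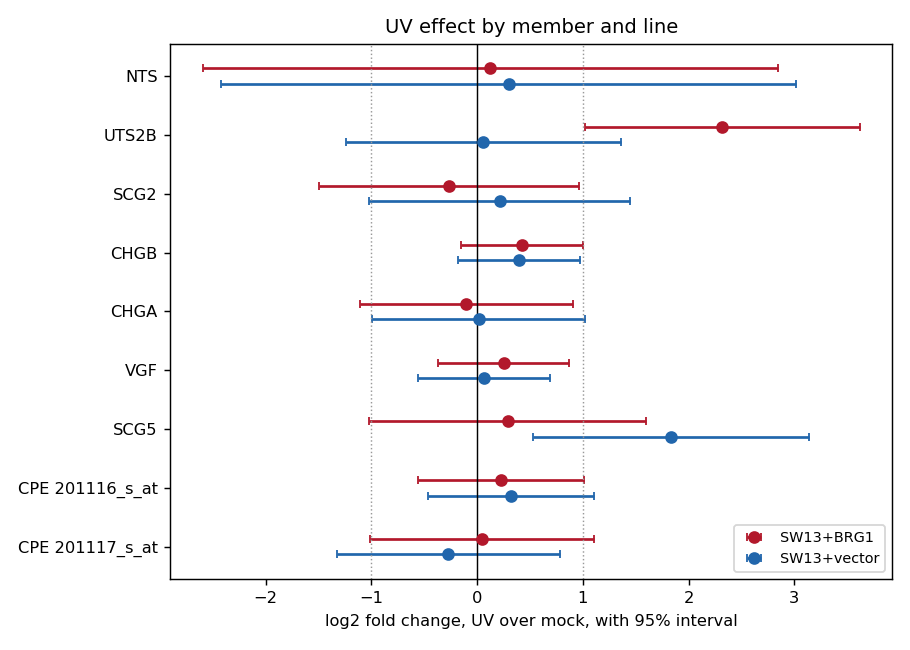
Log2 fold change of UV over mock for each probe set, in SW13+BRG1 (red) and SW13+vector (blue), with 95% intervals from limma and dotted lines at a 2-fold change. Of the intervals shown, those of UTS2B with BRG1 (estimate 2.32) and of SCG5 with the vector (1.83) do not cross 0, and the SCG5 value did not pass after adjustment.

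Whether the UV effect differed between the lines was tested with the interaction term. None of the 8 genes passed by limma, and 1, UTS2B, had an unadjusted p under 0.05, with a difference of 2.26 (standard error 0.85, adjusted p = 0.864). For SCG5 the difference was -1.54 (standard error 0.86) and for NTS -0.17 (standard error 1.78). Over all genes 0.0145% were called higher and 0.0506% lower in this test. The median difference was -0.043 for the 8 genes and 0.0062 for all genes.

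The genes with the profile closest to that of NTS over the 12 arrays were RGCC, a cell cycle regulator, ADGRL3, an adhesion receptor of the latrophilin family, the noncoding RNA LNCAROD, SCG2 and PI15, a secreted protein of the CAP family. Likeness was measured as the root mean square difference of the log2 signals after each profile was centred on its mean, and it was 1.52 for RGCC, 1.67 for ADGRL3, 1.82 for LNCAROD, 1.97 for SCG2 and 1.99 for PI15. RGCC had signals of 1.99, 5.84 and 6.48 in SW13+BRG1 after UV and 0.53, 0.62 and 1.77 in mock-treated SW13+BRG1, against 462.5, 450.8 and 576.1 in SW13+vector after UV and 1205, 1197 and 1248 in mock-treated SW13+vector. PI15 reached 1292 to 1878 in SW13+vector after UV and 3067 to 3346 in mock-treated SW13+vector, and 1.41 to 20.9 over the SW13+BRG1 arrays. Being chosen for their likeness to NTS, these genes were lower in SW13+BRG1 by construction.

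**Figure D4:**
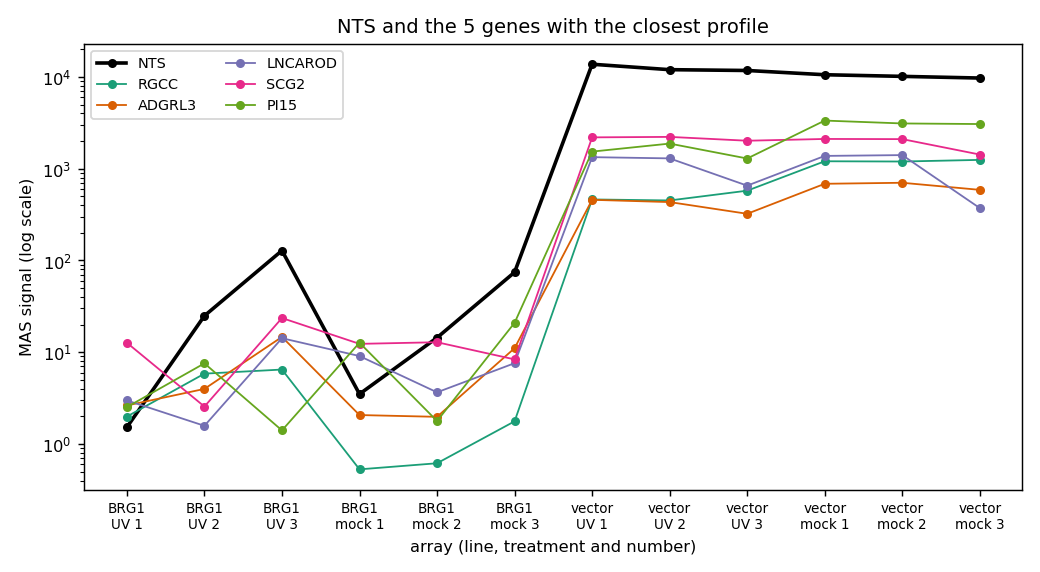
MAS signal (log scale) of NTS (thick black line) and of the 5 genes with the closest profile on each of the 12 arrays, SW13+BRG1 on the left and SW13+vector on the right. All 6 profiles are low in SW13+BRG1 and high in SW13+vector, where NTS spans 9726 to 13752. In SW13+vector PI15, RGCC and ADGRL3 lie lower after UV than in mock-treated cells. None of these UV effects was called (log2 fold changes of -1.03, -1.30 and -0.72, limma adjusted p = 0.460, 0.134 and 0.588). UV and mock signals did not overlap there for any of them, and the fit pools their spread with that of the low SW13+BRG1 signals. With BRG1 the UV effect of RGCC was called higher at 2.34 (limma adjusted p = 0.00756), between signals all below the array median.

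Other genes of the pathway were counted over lists drawn up from general knowledge, without the 8 genes described above, and each gene was counted by its brightest tested probe set. VIP, GIP, STC2, CPM, ICA1, EXPH5, SYTL4 and SYTL5 passed the filter on low signal only through the 6 SW13+BRG1 arrays. IAPP, RIMS1, ISL1 and PTPRC passed it only through the 6 SW13+vector arrays. The counts and medians of the lists are therefore a description, as are the adjusted p-values of these genes between the lines. The lists were chosen with earlier results of these arrays known, so their differences between the lines are not independent evidence. Their calls stand beside the 9.56% of all genes called higher and the 6.61% called lower after UV. The median log2 fold change after UV was 0.22 for peptides, 0.29 for processing enzymes, 0.29 for granule genes, 0.30 for exocytosis genes, 0.34 for neuroendocrine markers and -0.81 for transcription factors, against -0.017 for all genes. Of 62 listed neuropeptides and peptide hormones 27 were tested. After UV 5 were higher in SW13+BRG1 (VIP, GIP, NMU, APLN and STC2) and 4 lower (GCG, EDN1, ADM2 and ADM). Without UV 5 were higher, with UCN in place of STC2, and 4 lower, with IAPP in place of ADM2. ADM2 was at -1.86 after UV and at 1.58 without UV (limma adjusted p = 0.0514, not called), with group means of 13.1 to 46.8. Of the 2 tested probe sets of APLN, 1 was called higher in SW13+BRG1 after UV and without it. VIP, a peptide that relaxes smooth muscle, averaged 294.6 ± 99.6 in SW13+BRG1 after UV and 283.1 ± 119.3 in mock-treated SW13+BRG1, against 2.28 ± 1.82 in SW13+vector after UV and 3.92 ± 5.02 in mock-treated SW13+vector (mean ± SD, n = 3 arrays). Its log2 fold change was 7.30 after UV (standard error 1.09, adjusted p = 0.000273) and 7.39 without UV (adjusted p = 0.000282). The incretin GIP was also higher after UV, by 4.38 (standard error 0.55, adjusted p = 7.17e-05). GCG, the precursor of glucagon, was lower by the fit at -4.54 (standard error 0.93, adjusted p = 0.00294), with 14.7 ± 11.6 in SW13+BRG1 after UV against 218.4 ± 20.5 in SW13+vector after UV. IAPP, the amylin precursor, was called lower without UV (-4.54, adjusted p = 0.0104) and was at -2.76 after UV (adjusted p = 0.0984). Hence peptide genes went in both directions, as NTS and VGF did. After UV 2 of the 27 peptide genes, ADM2 and EDN1, were called lower than mock with BRG1, a share near the 6.27% of all genes, and UCN alone was called higher with the vector, where 0.528% of all genes were.

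The prohormone processing enzymes called by their brightest probe set were higher in SW13+BRG1, and of the other probe sets 1 of PCSK6 was called lower without UV. Of 19 tested, 5 were higher in SW13+BRG1 after UV (CPM, QPCT, PCSK4, ECE1 and PAM), 3 without UV (CPM, QPCT and PAM) and 0 lower by limma in either (2 and 1 at an unadjusted p under 0.05). CPM, a carboxypeptidase of the cell surface, averaged 176.5 ± 28.7 in SW13+BRG1 after UV against 4.80 ± 5.62 in SW13+vector after UV. Its log2 fold change was 5.89 (standard error 0.78, limma adjusted p = 0.000104). Of the 5 tested probe sets of CPM, 3 were called higher in SW13+BRG1 after UV and 4 without UV. QPCT, which forms the pyroglutamate end of peptides such as neurotensin, was higher by 4.41 (standard error 1.03, adjusted p = 0.00692), with 348.1 ± 77.6 against 20.3 ± 13.4. PAM, which amidates peptides and was named after its values were seen, was bright in both lines, with 3237 ± 371.7 against 1487 ± 291.2 and a log2 fold change of 1.14 (standard error 0.16, adjusted p = 0.000185). The calls of PCSK4 (1.37, adjusted p = 0.0426) and ECE1 (1.35, adjusted p = 0.0241) were lost in 19 of 28 and 5 of 29 alternatives. No enzyme of the list was called by limma for UV against mock in either line by its brightest probe set (3 at an unadjusted p under 0.05 with BRG1, 1 with the vector), while with the vector 1 other probe set of CPM was called higher and 1 each of NRDC and ECE1 lower.

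Granule genes were called about as often as all genes, and exocytosis genes were called in both directions. In the list of granule biogenesis and the granin family 2 of 17 tested genes were higher after UV, ICA1 and EXPH5, and 0 lower by limma (0 at an unadjusted p under 0.05), although 1 of the 10 tested probe sets of GNAS was called lower. ICA1, a granule-associated autoantigen of the islet, averaged 188 ± 13.5 in SW13+BRG1 after UV against 3.43 ± 0.99 in SW13+vector after UV, a log2 fold change of 5.81 (standard error 0.39, adjusted p = 2.43e-07) that its 3 tested probe sets shared. EXPH5, an effector of RAB27, was at 2.39 (standard error 0.45, adjusted p = 0.00163). VPS13A was called higher without UV, at 1.04 (adjusted p = 0.00499), a call lost in 8 of 29 alternatives, and its value of 0.79 after UV was under the 2-fold limit. CCDC186, needed for dense-core granules to mature in worms, fell after UV in SW13+BRG1 by its brightest probe set. Signals were 28.1 ± 16.8 after UV against 181.6 ± 93.8 in mock-treated cells (log2 fold change -2.80, standard error 0.55, limma adjusted p = 0.00446). Of the 3 tested probe sets of CCDC186, 1 was called lower in that comparison. CCDC186 was 1 of 17 granule genes called lower there, a share near the 6.27% of all genes. With the vector its UV effect was -1.51 (adjusted p = 0.111), and the interaction of -1.29 did not pass.

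Of 22 tested genes of regulated exocytosis 6 were higher after UV (SYTL2, SYTL5, SYTL4, RAB3B, STX1A and DNAJC5) and 1 lower (RIMS1), and without UV 5 were higher and 1 lower. Of RAB27A 1 of 5 tested probe sets was called lower after UV. The synaptotagmin-like proteins, which tether granules to the membrane, led them: SYTL2 at 5.03 (standard error 0.67, adjusted p = 0.000117), SYTL5 at 4.30 (standard error 0.83, adjusted p = 0.00184) and SYTL4 at 3.39 (standard error 0.90, adjusted p = 0.0144), with mean signals of 223.2, 165.7 and 47.4 in SW13+BRG1 after UV against 10.4, 11.0 and 6.31 in SW13+vector after UV. The call of SYTL4 was lost in 4 of 28 alternatives. RIMS1, a scaffold of the active zone, was at -2.59 (standard error 0.53, adjusted p = 0.00291). SYT5 alone of the 22 was called higher after UV than mock with BRG1, at 2.71 (adjusted p = 0.038), where 0.535% of all genes were.

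Transcription factors of neuroendocrine cells showed lower calls. Of 11 tested, 3 were lower in SW13+BRG1 after UV (SOX2, ISL1 and ONECUT2), 2 without UV (SOX2 and ISL1) and 0 higher by limma (0 after UV and 2 without UV at an unadjusted p under 0.05), and REST, the repressor of neuronal genes, was not called. SOX2, a factor of stem and progenitor cells, averaged 34.6 ± 4.86 in SW13+BRG1 after UV and 84.3 ± 12.6 in mock-treated SW13+BRG1, against 2604 ± 414.1 in SW13+vector after UV and 4256 ± 309.2 in mock-treated SW13+vector. Its log2 fold change was -6.23 after UV (standard error 0.16, adjusted p = 1.73e-10) and -5.67 without UV (adjusted p = 3.92e-10). ISL1, a factor of islet cells and neurons, was at -4.21 after UV (standard error 0.93, adjusted p = 0.00488). With BRG1, 4 of the 11 factors were lower after UV than mock, where 6.27% of all genes were: SOX2 (-1.28), PAX6 (-1.16), FOXA1 (-1.12) and ONECUT2. The call of FOXA1 was lost in 13 of 29 alternatives, and that of SOX2 in 4, among them the mean over its probe sets (-0.35). Of 12 tested neuroendocrine markers, 0 were called by limma in any of the 5 comparisons. After UV 3 of them were higher in SW13+BRG1 at an unadjusted p under 0.05. Neither tested gene of the receptors of neurotensin and urotensin, SORL1 and UTS2R, was called by its brightest probe set, although both had an unadjusted p under 0.05 after UV, 1 in each direction. SORL1 was at 0.96 after UV (standard error 0.13, adjusted p = 9.43e-05), under the 2-fold limit, and 1 of its 3 tested probe sets was called higher. Among the markers of other cells, PTPRC, a surface protein of white blood cells, was lower in SW13+BRG1 after UV, with 6.77 ± 5.85 against 118.2 ± 35.8 (log2 fold change -4.68, standard error 0.72, adjusted p = 0.000363), as it was without UV. There were 6 blood cell markers on the array. Their summed signal was 89.2 to 121.0 in SW13+BRG1 after UV and 51.7 to 88.1 in mock-treated SW13+BRG1. In SW13+vector it was 175.7 to 224.6 after UV and 147.4 to 230.4 in mock-treated cells. Within this sum PTPRC spanned 1.07 to 160 over the 12 arrays and HBB 27.4 to 62.1. No other blood cell marker exceeded 28.5, and PTPRC alone of the 2 tested was called between the lines. The part of the summed signal in the results was not tested.

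**Figure D5:**
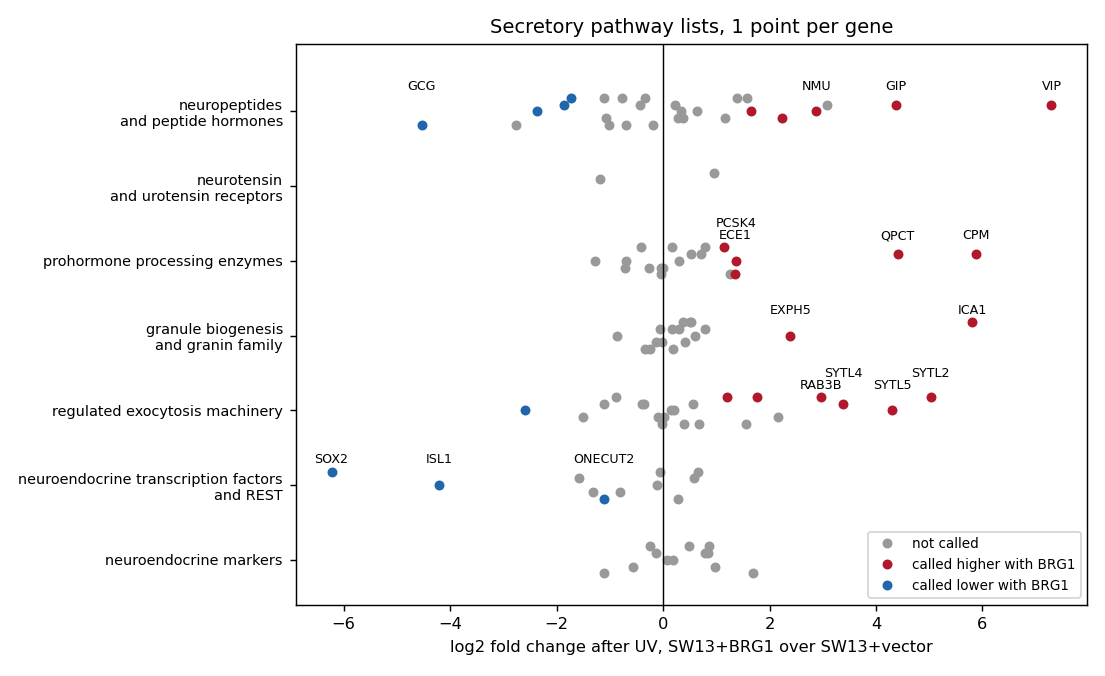
Log2 fold change after UV of SW13+BRG1 over SW13+vector for each tested gene of 7 lists, 1 point per gene, with genes called higher in red, called lower in blue and not called in grey. Up to 4 called genes with the largest change are named in each list. VIP (7.30) and CPM (5.89) lie farthest to the right in their lists and SOX2 (-6.23) farthest to the left.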

How the data were processed

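Total RNA of 12 SW13 cultures was hybridized to Affymetrix U133 Plus 2.0 arrays. The authors summarized each of 54675 probe sets with MAS under its defaults and scaled each array to a mean of 125, and deposited the resulting signal intensities without a log. That mean is met on each array once the highest and lowest 2% are left out. Which version of MAS was run is not stated there. Detection calls were not used, so signals near the array median may be background, and their folds are open to it.

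Signals were taken to log2 without further normalization. The 62 control probe sets were left out, and 32622 probe sets at or above the array median on at least 3 arrays entered a limma fit (limma version 3.58.1 under R version 4.3.3), 1 mean per group, with a variance prior that follows the mean and Benjamini-Hochberg adjustment over all tested probe sets. Calls needed adjusted p under 0.05 and a fold over 2, and for the interaction adjusted p alone. The fit was also run on simulated data with independent noise and, for each probe set, the same spread in all groups. That run does not cover the unequal spreads between the lines or deviations shared by arrays. Probe sets with 1 gene numbered 41097, with several 1801 and with none 11777. The brightest stood for a gene in lists and counts.

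The genes and lists were chosen with earlier results of these data known. Named are the set itself, up to 4 called genes of each list with the largest change, the 5 closest to NTS, and SMARCA4. The replicate number was not a block, as in the methods. Deviations from the group means correlated at 0.065 to 0.293 for same-numbered arrays of 2 groups, over 0.1 in 8 of 12 pairs. For UV against mock with the vector all 3 pairs were over 0.1. There, UV array 2 correlated slightly more with mock array 1 (0.109) than with mock array 2 (0.102). Arrays numbered 3 correlated with each other at 0.201 to 0.293, and with arrays numbered 1 or 2 at -0.223 to -0.0899. Arrays numbered 1 correlated with arrays numbered 2 at up to 0.137. The check therefore set number 3 apart in every comparison and did not tell numbers 1 and 2 apart. The part of number 3 in the results was not tested beyond the block and the arrays left out. Alternatives were other filters, scalings, offsets, priors and tests, the block, and leaving out each array. Figures were drawn with matplotlib (version 3.10.9). The number of arrays limits the precision.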

Additional observations from a re-analysis of the deposited data

How the results depend on the processing

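The directions of the 7 called differences after UV held under every alternative. Of the genes in the set, 1 was called higher and 1 lower after UV when probe sets had to reach the array median on all 12 arrays, which left CHGB and VGF alone to be tested. With the Welch test of the methods and Benjamini-Hochberg adjustment, 0 were called higher and 1 lower, UTS2B. The single gene called higher after UV with BRG1, UTS2B, became 0 under the filter on all 12 arrays, a floor at the 40th percentile, an offset of 16 added to the signal, a fit on the compared arrays alone, a variance prior without trend, the Welch test with and without adjustment and, chosen after seeing the data, without the 4 arrays numbered 1. Leaving out each array in turn gave 3 genes higher and 4 to 5 lower after UV, 0 to 1 higher after UV with BRG1 and 0 to 1 higher after UV with the vector. With the floor the UV effect of RGCC with BRG1 was -0.0104 in place of 2.34, as all its signals there were below the array median. Scaling to 18 hybridization controls put the median of all tested probe sets at -0.21 for the lines after UV, -0.45 for UV with BRG1, -0.27 for UV with the vector and -0.16 for the interaction, and turned the 2506 higher and 1949 lower calls between the lines after UV into 2129 and 2652. Quantile normalization turned the 183 higher and 1895 lower calls of UV with BRG1 into 296 and 1246. The calls of the set did not change with either. With the replicate number as a block, UTS2B after UV with BRG1 had an adjusted p of 0.00791 at 2.32, and none of the 45 values of the set changed its call. Elsewhere the cause of a lost call was not tested.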
